A study of Mus musculus with 64 samples.

Results

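Bone marrow-derived macrophages of C57BL/6 mice were compared 8 h and 2 h after 50 ng/ml lipopolysaccharide (LPS), the outer membrane glycolipid of Gram-negative bacteria. The comparison rests on 4 of the 64 arrays of the series, 2 at each time, chosen by the strain, agent, dose and time in their labels. The cells were grown from the femoral marrow of male mice aged 7 to 8 weeks, collected on day 6 and reseeded at 200000 cells per well of a 24-well plate with 10000 U/ml CSF1, the macrophage growth factor, so CSF1 was present in all groups. LPS was added on day 7, and each array was made from 250 ng of total RNA of a separate well. The labels do not say whether the wells held cells of different mice. The p-values therefore measure the spread between replicate wells, which may be technical. That spread is pooled over all 32 groups of the series.

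Further groups of the same strain and culture were used beside the main comparison: LPS at 5 and at 0.5 ng/ml after 2 h and 8 h, and LPS at 50 ng/ml after 4 h and 24 h, again with 2 arrays each. No untreated array enters any comparison, because the 0 h arrays of this series carry inflammatory transcripts. All the differences given here are therefore between cells that had already received LPS for 2 h and cells that had received it for 8 h.

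LPS is sensed by Toll-like receptor 4 (TLR4), which signals through the adaptors MyD88 and TRIF. The first hour of signalling brings the immediate early genes and direct NF-kB targets, while TRIF and IRF3 switch on interferon beta. Secreted interferon beta then acts back on the macrophages through its receptor and factors that include STAT2 and IRF9, which act at an interferon-stimulated response element (ISRE), so that a slower set of genes follows the direct one.

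The values are probe set intensities on a log2 scale, with the brightest probe set standing for each of 18820 genes. A gene is said here to have risen or fallen when the difference between the means of the 8 h and the 2 h arrays was at least 1 on the log2 scale, which is 2-fold, with a Benjamini-Hochberg adjusted p below 0.05 in a limma fit over all 64 arrays. The standard error (SE) comes from that fit. A level under 4.19, the 40th percentile of all values and an intensity of 18.2, is called dim. A level compares arrays for the same gene and not different genes.

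Replicate arrays correlated at r = 0.9969 at 2 h and 0.9966 at 8 h across genes, within the range of 0.9916 to 0.998 over all pairs of the series, and 1 gene at each time lay over 1.5 log2 units apart between the wells. Array medians of the whole series ran from 25.61 to 29.03 in intensity, and those of the arrays compared split by time, with 27.63 and 26.47 at 2 h and 29.03 and 28.59 at 8 h, which is why other scalings are given beside the counts. Probe sets without a gene separated 11 of the 64 arrays from the other 53, and all 4 arrays compared here were among the 53. The 8 macrophage markers summed to an intensity of 34492 to 35452 at 2 h and 37178 to 38826 at 8 h. Among them 1 rose, Fcgr1, and the median difference was -0.01. Without the minimum change, 3 were higher and 2 lower at an adjusted p below 0.05 in limma. The markers of other cells are given further on.

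Of the 18820 genes, 2019 (10.7%) changed between 2 h and 8 h. The 808 genes that rose make up 4.29% of the genes and the 1211 that fell 6.43%. Without the minimum change, 6622 genes (35.2%) had an adjusted p below 0.05. Both 8 h arrays lay above both 2 h arrays in 7002 genes (37.2%) and below both in 6172 (32.8%), so arrays that do not overlap are common and each count of such genes is to be read against those shares. The split between rises and falls depended on the scaling: rises were 40% of the calls as deposited, 50.1% (965 against 960) with each array centred on its median and 49.3% (908 against 934) after quantile normalisation. The median difference of all genes was 0.06 as deposited, and centring moved it to 0.19.

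Nos2, the inducible nitric oxide synthase, had the largest rise. Its log2 level was 4.47 and 4.41 on the 2 h arrays and 12.37 and 12.51 on the 8 h arrays. The difference of 8.00 (SE 0.87, adjusted p = 5.6e-10) is 256-fold between an 8 h level near the top of the scale and a 2 h level just above the dim line. Tnfsf10, the death receptor ligand TRAIL, went from 3.89 and 4.20 to 10.81 and 10.97, a difference of 6.85 (SE 0.37, adjusted p = 3.01e-18). Lipg, endothelial lipase, went from 4.80 and 4.41 to 11.13 and 11.18, a difference of 6.55 (SE 0.25, adjusted p = 5.44e-22). In each of these genes the wells of a time lay within 0.4 of each other, against a gap of over 6 between the times.

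The 15 largest rises were made up mostly of interferon-induced genes, chemokines and secreted proteins. After the genes above came the chemokine Cxcl9 (difference 6.51), the immunity-related GTPase Iigp1 (6.23), Ifi213 (5.68), Ifit3b (5.65), the antiviral GTPase Mx1 (5.52), Ifi208 (5.50), Ms4a4c (5.42), the cytokine Il6 (5.40), the chemokine Ccl17 (5.20), complement factor B (Cfb, 5.14), Ifit2 (4.92) and the integrin subunit Itgb8 (4.87). Over all 15 genes the adjusted p lay between 5.44e-22 and 1.37e-07. Tnfsf10, Cxcl9, Iigp1, Ifi213 and Ifit3b were dim at 2 h, so the size of their difference is set against a level with little signal.

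The 12 largest falls began with Irs2, an adaptor of the insulin and IGF1 receptors. It stood at 9.80 and 9.71 at 2 h and at 5.04 and 5.52 at 8 h, a fall by 4.48 (SE 0.28, adjusted p = 3.35e-16). Rasgrp3, an exchange factor for Ras family GTPases, went from 9.36 and 9.55 to 4.94 and 5.06 and fell by 4.45 (SE 0.21, adjusted p = 1.48e-19). The transcription factor Bhlhe40 fell by 3.80, the mRNA decay factor Zfp36l1 by 3.73 and Errfi1, an inhibitor of the EGF receptor family, by 3.61. The other members were the cohesin acetyltransferase Esco2 (difference -3.52), Tmem273 (-3.44), Egr1 (-3.43), the DNA methylation cofactor Uhrf1 (-3.43), E2f2 (-3.43), the sialyltransferase St6gal1 (-3.34) and Dtl (-3.30), a substrate receptor of the replication-coupled ubiquitin ligase.

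**Figure D1:**
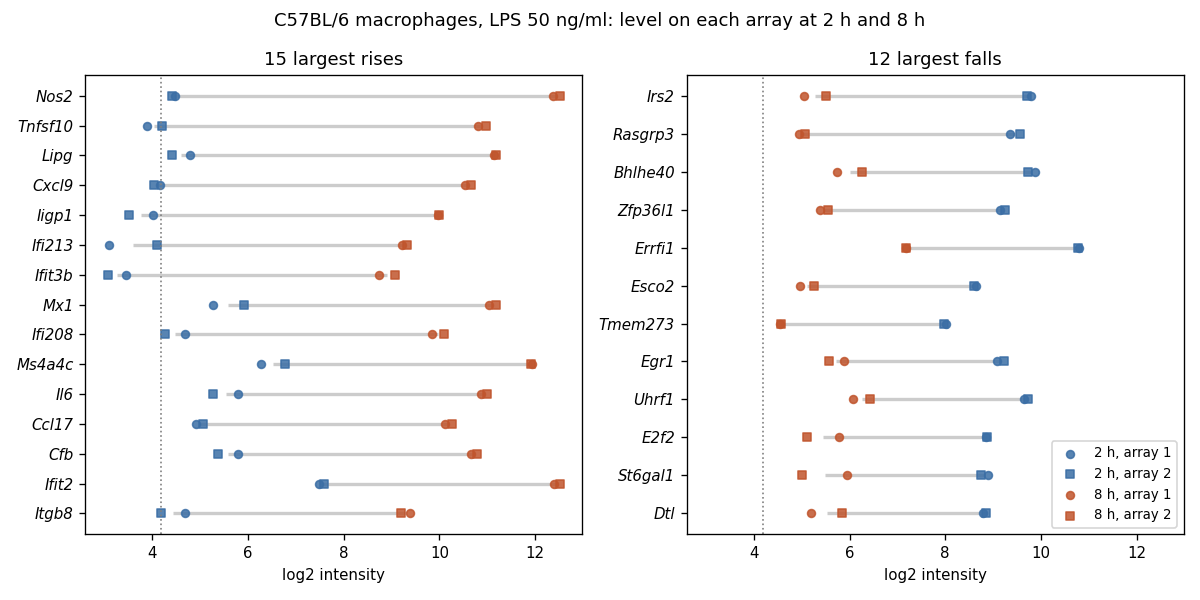
Log2 intensity (x axis) on each of the 4 arrays for the 15 genes with the largest rises (left) and the 12 with the largest falls (right), with 2 h in blue, 8 h in orange, circles for replicate 1, squares for replicate 2, a grey bar between the means and a dotted line at the dim level of 4.19. The genes were chosen among called genes whose 2 h and 8 h arrays do not overlap. Of the 15 risen genes, 5 have a 2 h mean under the dotted line.

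The antiviral genes and the interferon-inducible GTPases had the largest medians of the 25 lists, and genes of interferons and their signalling moved less. Ifnb1, the gene of interferon beta, stood at 5.54 and 5.92 at 2 h, 3.82 and 4.03 at 8 h, and fell by 1.80 (SE 0.25, adjusted p = 1.32e-07) to a dim level. Of the 20 measured genes of interferons and their signalling, 9 rose and 2 fell, against 4.29% and 6.43% of all genes. Stat2 rose from 7.79 and 7.96 to 11.82 and 11.83, a difference of 3.96 (SE 0.24, adjusted p = 6.28e-17). Irf7, which amplifies the interferon response, rose from 8.73 and 9.08 to 12.58 and 12.67, a difference of 3.72. Jak2 (2.77), Stat3 (1.47), the receptor kinase Tyk2 (1.44), Irf2 (1.37), Irf9 (1.21), Irf5 (1.12) and Stat5a (1.02) rose less. Ifngr1, the ligand-binding chain of the interferon gamma receptor, fell by 1.26. The receptor chains Ifnar1 (0.27, adjusted p = 0.0681) and Ifnar2 (0.39, adjusted p = 0.0227), the kinase Jak1 (0.12, adjusted p = 0.249) and Irf3 (-0.23, adjusted p = 0.105) did not pass.

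All 29 measured antiviral genes of the 34 listed rose. Their median difference was 3.28, against 0.06 for all genes, and the smallest was 1.66 for the tethering factor Bst2. Mx1, a GTPase that traps viral nucleoproteins, was at 5.27 and 5.91 at 2 h and at 11.03 and 11.18 at 8 h. Ifit2, which binds viral RNA, went from 7.48 and 7.59 to 12.39 and 12.52, a difference of 4.92 (SE 0.43, adjusted p = 3.42e-12). Isg15, the ubiquitin-like modifier, went from 5.31 and 5.34 to 9.22 and 9.38, a difference of 3.97 (SE 0.36, adjusted p = 7.69e-12). Both arrays of 8 h were far above both of 2 h in each of them.

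The remaining antiviral genes included RNA sensors and RNA-degrading systems. The RNA helicases Ifih1 (MDA5) rose by 3.28, Dhx58 (LGP2) by 2.77 and Ddx58 (RIG-I) by 2.75. Oas1a, Oas2, Oas3, Oasl1 and Oasl2, the oligoadenylate synthetases and their relatives, rose by 2.30 to 3.77. Rsad2 (viperin) rose by 3.44 and the nucleic acid sensor Zbp1 by 4.59. Samhd1, which depletes nucleotides, was already at 10.71 and 10.74 at 2 h and reached 12.45 and 12.55, a difference of 1.78.

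The 9 measured interferon-inducible GTPases of the 16 listed, which attack vacuoles that hold microbes, also all rose, with a median difference of 4.53. Iigp1 changed most (6.23) and Gbp8 least (1.87). Gbp2 went from 7.74 and 7.99 to 12.45 and 12.60, a difference of 4.66 (SE 0.42, adjusted p = 5.96e-12). The Gbp, Ifit, Oas and Ifi200 families hold near-identical members, and probes shared between them could not be separated here beyond leaving out probe sets assigned to several genes.

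Promoter sequences of these genes were read from RefSeq on GRCm38.p6, as windows of 300 bases from 250 before to 50 after the start, which were available for 14749 of the genes tested (18155 windows). The ISRE core was searched on both strands as GAAA, any 2 bases and GAAA again. It was found in 3.27% of all windows, in 9.93% of the 826 windows of genes that rose and in 2.35% of the 1274 windows of genes that fell. Among the antiviral genes 13 of 25 windows held it, and among the GTPases 5 of 6. The following are the 150 bases before the start, read along the gene, of an antiviral ubiquitin-like gene, an RNA-binding gene and a GTPase of the groups that rose most, with matches in capitals; the overlapping matches of Isg15 form a single run of 3.
Isg15: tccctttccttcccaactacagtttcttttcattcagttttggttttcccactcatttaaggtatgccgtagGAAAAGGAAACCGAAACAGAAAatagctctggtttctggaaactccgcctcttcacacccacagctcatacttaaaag
Ifit1: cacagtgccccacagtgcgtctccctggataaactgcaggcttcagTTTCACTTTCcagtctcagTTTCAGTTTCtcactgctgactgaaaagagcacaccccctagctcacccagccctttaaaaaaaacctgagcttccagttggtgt
Gbp2: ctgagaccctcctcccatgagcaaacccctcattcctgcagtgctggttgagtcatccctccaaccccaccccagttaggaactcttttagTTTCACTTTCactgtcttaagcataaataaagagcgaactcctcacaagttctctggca
These stretches are chr4:156200819-156200968 (minus strand), chr19:34640739-34640888 (plus strand) and chr3:142620513-142620662 (plus strand). A match describes these letters only and says nothing of binding in these cells.

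The inflammatory cytokines divided by time. Of 25 measured genes, 12 rose and 5 fell between 2 h and 8 h, and the median difference was 1.11. Il6, which drives the acute phase response, stood at 5.80 and 5.26 at 2 h and at 10.86 and 11.00 at 8 h, a difference of 5.40 (SE 0.56, adjusted p = 2.1e-10). Il27, a regulator of T cell responses, went from 6.79 and 6.53 to 11.04 and 10.95, a difference of 4.34 (SE 0.28, adjusted p = 4.75e-16). In both genes every 8 h array was over 4 units above every 2 h array. Edn1 (3.15), Il15 (3.09), Tnfsf15 (2.99), Il18 (2.94), Il12a (2.73), Il12b (2.57), Inhba (1.65), the interleukin-1 antagonist Il1rn (1.57) and Csf1 (1.11) rose as well.

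Other cytokine genes did not rise after 2 h. Tnf stood at 13.23 and 13.17 at 2 h and at 12.95 and 13.05 at 8 h, a difference of -0.20 (SE 0.14, adjusted p = 0.267) that did not pass the test. Tnfsf9, the ligand of the co-stimulatory receptor 4-1BB, was at 11.80 and 11.72 at 2 h and fell by 3.06 to 8.69 and 8.71. Lif (2.51), Csf2 (1.68), Osm (1.34) and Vegfa (1.04), in order of the size of their fall, also went down. Il10, the main anti-inflammatory cytokine, lay between 7.58 and 7.87 on the 4 arrays and did not pass (difference 0.20, adjusted p = 0.525).

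Il1b, the gene of interleukin-1 beta, was at 9.26 and 9.09 at 2 h and at 11.19 and 11.22 at 8 h, a difference of 2.03 that did not pass (SE 0.93, adjusted p = 0.0903). The wells differed by 0.17 at 2 h and 0.02 at 8 h. The fit takes its spread from all pairs, and in a pair of BALB/c macrophages given interferon gamma the wells were 6.18 apart for this gene. With only the 4 arrays compared in the fit, the adjusted p was 0.00034. Ptgs2, the inducible cyclooxygenase, behaved alike, with a difference of 1.21 and an adjusted p of 0.082 over all arrays and 0.00076 over the 4. For Il1a the corresponding values were a difference of 0.78 and p-values of 0.484 and 0.00305.

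Of 20 chemokines, 10 rose and 1 fell, with a median difference of 0.62. Cxcl9, a ligand of the T cell receptor CXCR3, stood at 4.15 and 4.03 at 2 h and at 10.54 and 10.66 at 8 h, a difference of 6.51 (SE 0.43, adjusted p = 1.11e-15). Of its fellow CXCR3 ligands, Cxcl11 rose by 3.13, while Cxcl10 was at 12.01 and 11.94 at 2 h already and rose by 1.25 to 13.17 and 13.27. Ccl17 and Ccl22, the ligands of CCR4, rose by 5.20 and 3.91. Ccl8 (4.31), Ccl5 (2.43), Ccl12 (2.28), Cxcl3 (1.63) and Cxcl16 (1.03) rose too.

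Cxcl1, which recruits neutrophils, was the chemokine that fell. Its levels were 11.14 and 11.13 at 2 h and 8.90 and 8.92 at 8 h, a fall by 2.23 (SE 0.46, adjusted p = 0.000144). Ccl2 (difference -0.09), Ccl3 (0.20), Ccl4 (0.11) and Ccl7 (0.16) held log2 levels between 11.39 and 13.45 at both times and did not pass. Cxcl2 went from 12.82 and 12.74 to 11.99 on each 8 h array, and its difference of -0.79 did not pass (adjusted p = 0.436 over all arrays and 0.00238 over the 4).

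The kappa B element was searched on both strands as GGGA, any 1 base and TTTCC. It was present in 0.446% of all promoter windows, in 3 of the 12 windows of chemokines (Cxcl1, Cxcl2 and Cxcl3) and in 2 of the 23 windows of cytokines (Il6 and Csf1). The genes that rose held it in 1.33% of windows and those that fell in 0.392%. Il6 and Cxcl3, which rose, are shown with Cxcl1, which fell, because all of them carry the element within 75 bases of the start although they moved in opposite directions; each line is the 150 bases before the start with the match in capitals.
Il6: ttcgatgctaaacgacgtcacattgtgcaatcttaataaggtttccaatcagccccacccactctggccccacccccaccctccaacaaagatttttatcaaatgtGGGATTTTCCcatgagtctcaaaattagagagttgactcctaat
Cxcl3: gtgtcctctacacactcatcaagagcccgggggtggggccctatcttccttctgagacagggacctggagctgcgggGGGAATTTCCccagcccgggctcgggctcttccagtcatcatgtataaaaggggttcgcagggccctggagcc
Cxcl1: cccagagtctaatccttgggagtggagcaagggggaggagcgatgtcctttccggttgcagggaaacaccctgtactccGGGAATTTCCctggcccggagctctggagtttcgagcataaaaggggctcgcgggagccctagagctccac
They are chr5:30012964-30013113, chr5:90785951-90786100 and chr5:90891095-90891244, all on the plus strand of GRCm38.p6. The first base of the match lies 44, 73 and 71 bases before the start.

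Many of the immediate early genes, transcription factors and regulators that respond within minutes, were lower at 8 h. Of 21 measured, 9 fell and 0 rose, and the median difference was -0.72; the counts were 9 and 0 under both other scalings. Without the minimum change, 12 were lower and 3 higher at an adjusted p below 0.05 in limma. Egr1 was at 9.08 and 9.23 at 2 h and at 5.88 and 5.58 at 8 h, a fall by 3.43 (SE 0.22, adjusted p = 4.42e-16). Egr2, a fellow zinc finger factor, went from 11.14 and 11.06 to 7.91 and 8.19 and fell by 3.05 (SE 0.21, adjusted p = 2.04e-15). Nr4a1 (fall by 3.12), Maff (2.60), Csrnp1 (2.26), Myc (2.20), Egr3 (1.80), Fosb (1.499) and Plk2 (1.16) fell also. Not all members followed: Atf3 stayed between 12.26 and 12.34 on the 4 arrays (difference -0.04, adjusted p = 0.822), and Fos differed by 0.05 (adjusted p = 0.885).

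The MAP kinase phosphatases, which switch off ERK, JNK and p38, fell in the same interval. Of 9 genes 7 fell and 0 rose, with a median of -1.40. Dusp5 went from 9.30 and 9.48 to 6.49 and 6.38 and fell by 2.96 (SE 0.15, adjusted p = 3.29e-19). Dusp8 fell by 2.79, Dusp10 by 1.93, Dusp4 by 1.41, Dusp14 by 1.40 and Dusp6 by 1.31. Dusp1, the phosphatase of p38 and JNK that limits cytokine output, was at 12.40 and 12.61 at 2 h and at 11.49 and 11.24 at 8 h, a fall by 1.14 from a high level. Dusp16 (-0.39, adjusted p = 0.000485) and Dusp2 (0.40, adjusted p = 0.2) did not pass the minimum change. The cAMP response element, TGAC followed by GTCA, stood in 2 of the 8 windows of these genes. Its share was 2.83% in windows of all fallen genes, 2.91% in those of risen genes and 2.41% in all windows.

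Most NF-kB subunits and inhibitors stayed under the minimum change. Of 19 genes, 5 rose, 1 fell and the median was 0.35. Without the minimum change, 12 were higher and 4 lower at an adjusted p below 0.05 in limma. The kinase Map3k8 (1.52), the coactivator Bcl3 (1.42), the kinase Ikbke (1.30), Traf1 (1.24) and the subunit Nfkb2 (1.15) rose. Nfkbiz, a nuclear coactivator, was at 11.72 and 11.87 at 2 h and at 10.65 and 10.64 at 8 h and fell by 1.15 (SE 0.24, adjusted p = 0.00012). The subunits Rel (-0.11), Relb (-0.16) and Rela (0.22) and the deubiquitinase A20 (Tnfaip3, -0.66) stayed under the minimum change. Among 15 genes of mRNA decay and signal brakes 2 rose and 2 fell, against 4.29% and 6.43% of all genes. The cytokine signalling inhibitor Socs1 (2.53) and the kinase-like inhibitor Irak3 (1.40) rose, and Zfp36l1 (-3.73) and the phosphatase Inpp5d (SHIP1, -1.89) fell. Socs3 (0.23, adjusted p = 0.58) and Zfp36 (0.21, adjusted p = 0.157) did not pass.

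Effector enzymes and secreted defence proteins rose in 13 of 20 genes and fell in 0, with a median of 2.23. Beside Nos2, the enzymes of its pathway moved: Gch1, which makes the cofactor tetrahydrobiopterin, went from 7.57 and 7.21 to 9.24 and 9.30 and rose by 1.88, and Slc7a2, an arginine transporter, rose by 2.77. The competing arginase Arg1 lay between 4.05 and 4.70 on the 4 arrays (difference 0.37, adjusted p = 0.0747). Hdc, which makes histamine, was at 4.98 and 5.09 at 2 h and at 9.59 and 9.49 at 8 h, a difference of 4.51 (SE 0.21, adjusted p = 3.28e-20). Cfb (5.14), the acute phase protein Saa3 (3.70), the matrix protease Mmp14 (3.35), the siderophore-binding protein Lcn2 (3.29), uridine phosphorylase Upp1 (3.19), the prostaglandin synthase Ptges (2.92), haptoglobin (Hp, 2.58), the scavenger receptor Marco (1.75) and cholesterol 25-hydroxylase Ch25h (1.45) rose. Acod1, which makes itaconate, was at 12.50 and 12.31 at 2 h and reached 13.18 and 13.28 (difference 0.82).

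Most genes of class I antigen presentation rose, while those of class II stayed under the minimum change except for 1. Of 13 class I processing genes 10 rose, with a median of 1.12 and the counts 11 after centring and 8 after quantile normalisation. Nlrc5, the class I transactivator, went from 8.95 and 9.08 to 11.82 and 11.80 and rose by 2.79 (SE 0.20, adjusted p = 1.28e-14). The peptide transporter subunits Tap1 and Tap2 rose by 2.69 and 2.33 and the immunoproteasome subunits Psmb10, Psmb9 and Psmb8 by 2.40, 1.66 and 1.28. B2m (0.32) and H2-K1 (0.49) did not reach the minimum change. Of 9 class II genes 1 rose, the transactivator Ciita (1.13, and 0.86 without replicate 2 of 2 h, under the minimum), and H2-Ab1 (0.97, adjusted p = 0.000426) and H2-Aa (0.68, adjusted p = 0.000132) stayed under it. Counted without the minimum change, 6 of the 9 class II genes were higher and 0 lower at an adjusted p below 0.05 in limma.

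Of 16 co-stimulatory and adhesion genes 7 rose and 0 fell, with a median of 0.72. Cd40, the receptor for T cell help, was at 9.76 and 9.61 at 2 h and at 12.46 and 12.50 at 8 h, a difference of 2.79 (SE 0.25, adjusted p = 6.42e-12). Cd86 went from 6.94 and 6.81 to 9.48 and 9.50 and rose by 2.62, whereas its relative Cd80 was at 9.19 and 9.20 at 2 h and at 8.51 and 8.47 at 8 h (difference -0.70, adjusted p = 0.000199, under the minimum). Cd69 (3.60), Vcam1 (2.74), the checkpoint ligand Cd274 (2.26), Slamf1 (1.79) and Slamf7 (1.61) rose.

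Cell cycle genes fell as a block. Of 30 measured genes 26 fell and 0 rose, with a median of -1.49, and 24 fell under each of the other scalings. Uhrf1 had the largest difference of the list. It was at 9.65 and 9.73 at 2 h and at 6.08 and 6.43 at 8 h, a fall by 3.43 (SE 0.15, adjusted p = 1.01e-20). Mcm2, a subunit of the replicative helicase, went from 10.19 and 10.16 to 7.43 and 7.47 and fell by 2.73 (SE 0.14, adjusted p = 2.15e-18). Rrm2, the small subunit of ribonucleotide reductase, fell by 2.55 and Mcm7 fell by 2.34. The wells of a time lay within 0.4 of each other in all of these.

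The spindle checkpoint kinase Bub1b fell by 2.30, the mitotic activator Cdc20 fell by 1.58, the spindle motor Kif11 fell by 1.57 and the proliferation marker Mki67 fell by 1.42. Ccna2 (1.37), Mcm5 (1.24), Cdk1 (1.15), Top2a (1.14), Plk1 (1.06) and Aurka (1.00) had the smaller falls. The genes that were not called were Ccne1 (-0.85), Mcm6 (-0.76), Ccnb2 (-0.62, adjusted p = 0.0546) and the replication clamp Pcna (-0.23, adjusted p = 0.076). Ccnd1, the cyclin that CSF1 maintains, was at 12.36 and 12.35 at 2 h and at 10.66 and 10.64 at 8 h and fell by 1.71 (SE 0.10, adjusted p = 3.05e-17). The median level of the 30 genes was 10.15 at 2 h, 9.88 at 4 h, 8.33 at 8 h and 6.15 at 24 h, and Ccna2 had a mean of 5.82 at 24 h. On bulk arrays fewer cycling cells and less RNA per cell cannot be told apart.

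E2F sites were searched on both strands as TTT, then CC or GG, then CGC. They stood in 2.25% of all promoter windows, in 5.65% of the windows of fallen genes, in 2.06% of those of risen genes and in 5 of the 28 windows of the cell cycle list. Mcm5, a replicative helicase subunit that fell by 1.24, and Dtl, among the 12 largest falls, are shown as the 150 bases before the start, with the match in capitals.
Mcm5: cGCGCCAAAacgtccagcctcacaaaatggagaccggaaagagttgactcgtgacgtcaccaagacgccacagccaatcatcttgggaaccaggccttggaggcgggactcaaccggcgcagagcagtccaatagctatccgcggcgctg
Dtl: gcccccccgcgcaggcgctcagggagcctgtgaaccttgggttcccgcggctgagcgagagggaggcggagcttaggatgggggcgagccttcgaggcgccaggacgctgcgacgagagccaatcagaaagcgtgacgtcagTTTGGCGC
They are chr8:75109359-75109508 (plus strand) and chr1:191575545-191575694 (minus strand) of GRCm38.p6.

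**Figure D2:**
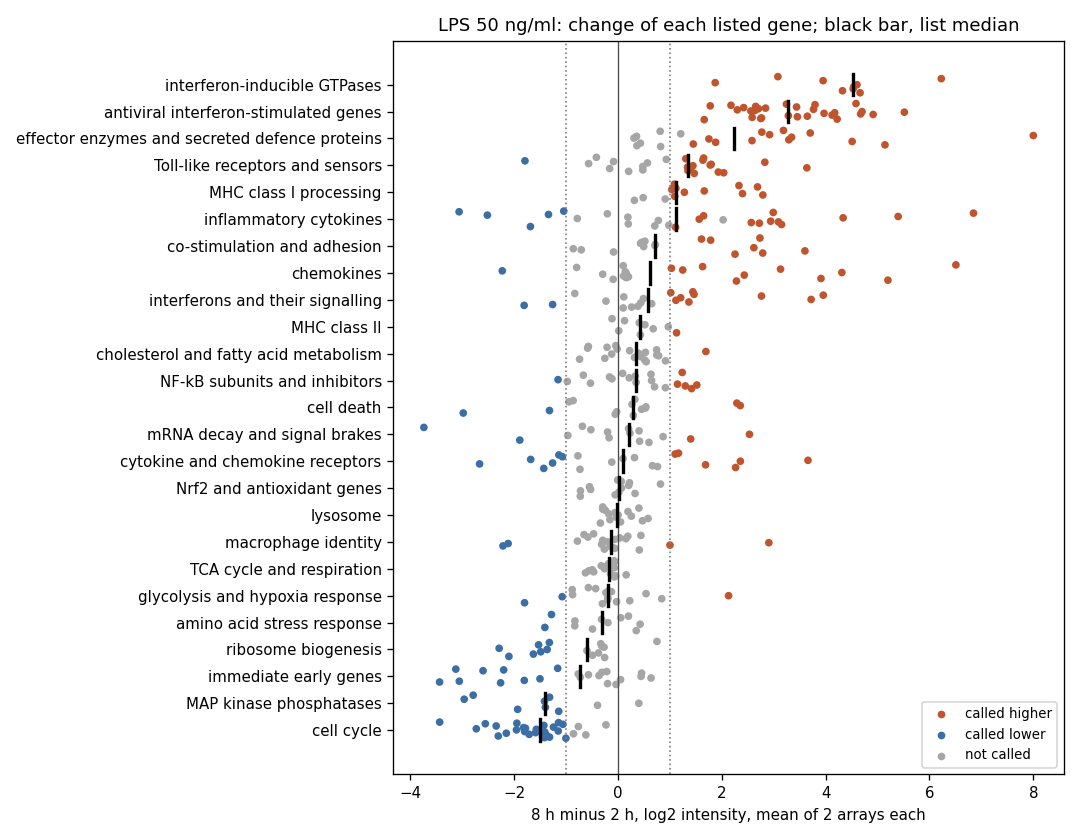
Difference between 8 h and 2 h (x axis, log2 intensity, mean of 2 arrays each) of each measured gene in the 25 pathway lists (rows, ordered by median), in orange where called higher, blue where called lower and grey otherwise, with a black bar at the list median and dotted lines at a difference of 1 either way. The antiviral genes and GTPases lie wholly to the right of the dotted line and 26 of 30 cell cycle genes to the left, while lysosomal and TCA cycle genes cluster around 0.

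Sensors of microbes rose in the same interval. Of 24 Toll-like receptors, adaptors and sensors, 14 rose and 1 fell, with a median of 1.35. Nod1, which senses peptidoglycan, went from 7.01 and 6.97 to 10.56 and 10.70 and rose by 3.64 (SE 0.24, adjusted p = 7.79e-16). Tlr3, the receptor for double-stranded RNA, rose by 2.83 and the inflammatory caspases Casp1 and Casp4 by 2.04 and 1.93. Tlr1 (1.80), Tlr9 (1.65), Tlr6 (1.64), Tlr8 (1.31), and the adaptors Tirap (1.78), Ticam2 (1.45) and Myd88 (1.40) rose, and Tlr5, the flagellin receptor, fell by 1.79.

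Of 19 cytokine and chemokine receptors, 6 rose and 6 fell. Il15ra, the chain that presents interleukin-15, stood at 6.11 and 6.36 at 2 h and at 9.88 and 9.91 at 8 h and rose by 3.66 (SE 0.24, adjusted p = 5.28e-16), beside its ligand Il15 (3.09). Ccr7, which guides cells to lymph nodes, rose by 2.27, Il13ra1 by 2.36 and Csf3r by 1.69. Cxcr4 fell by 2.66, Il17ra by 1.68 and Ccr2, the receptor of the chemokine Ccl2, by 1.43.

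Of 21 macrophage identity genes 2 rose and 2 fell, against 4.29% and 6.43% of all genes. Without the minimum change, 4 were higher and 8 lower at an adjusted p below 0.05 in limma. Fcgr1, the high-affinity IgG receptor, went from 8.51 and 8.73 to 11.50 and 11.56 and rose by 2.91 (SE 0.16, adjusted p = 3.49e-18). Cebpb was at 9.15 on both arrays at 2 h and at 10.25 and 10.05 at 8 h; its difference of 1.00 lay at the threshold and was 0.91 to 1.00 in alternatives that lost the call. Cebpa, the myeloid factor, went from 7.95 and 8.03 to 5.72 and 5.84 and fell by 2.21, and Cx3cr1, the fractalkine receptor, fell by 2.11.

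Metabolic and housekeeping groups had few members past the minimum change. Their counts are to be read against the 4.29% of all genes that rose and the 6.43% that fell. In 17 genes of glycolysis and the hypoxia response, Pfkfb3, which makes an activator of phosphofructokinase, went from 7.69 and 7.81 to 9.90 and 9.86 and rose by 2.13 (SE 0.12, adjusted p = 8.82e-18), while Egln3 fell by 1.80 and Pdk1 by 1.07. In limma 0 of 17 genes of the TCA cycle and respiration, 0 of 13 Nrf2 targets and 0 of 15 lysosomal genes were called, while 6, 6 and 6 had an unadjusted p below 0.05 with a smaller change. Among these were Fh1 (-0.62), Gclc (-0.72) and Ctsk (0.58). Of 20 genes of cholesterol and fatty acid metabolism 1 rose, the oxysterol receptor Nr1h3 (1.70). Without the minimum change, 8 of these 20 were higher and 3 lower at an adjusted p below 0.05 in limma. Counted likewise, 3 of the 17 genes of glycolysis and the hypoxia response were higher and 9 lower. The medians of the Nrf2 and lysosomal lists changed sign with the scaling and lay within 0.15 of 0 in all of them.

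Ribosome biogenesis genes fell in 7 of 15 and rose in 0, with a median of -0.60. Nop58, a core protein of the box C/D particles that methylate ribosomal RNA, was at 8.20 and 8.24 at 2 h and at 5.90 and 5.97 at 8 h and fell by 2.29 (SE 0.17, adjusted p = 4.18e-14). Dkc1, the pseudouridine synthase, fell by 2.10, Gnl3 by 1.63 and Polr1b, a subunit of RNA polymerase I, by 1.53. Among 14 cell death genes, Bcl2 went from 9.76 and 9.88 to 6.78 and 6.91 and fell by 2.98 (SE 0.22, adjusted p = 1.51e-14), and its antagonist Bcl2l11 fell by 1.32. The death receptor Fas (2.36) and the necroptosis effector Mlkl (2.29) rose.

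MicroRNA genes are on the array through probe sets against their precursors, so a value concerns the precursor or primary transcript and not the mature microRNA. Of 307 tested, 5 rose and 3 fell, a smaller share than the 4.29% and 6.43% of all genes, and 205 were dim at both times. The 8 were singled out after their values were seen. All those that fell belong to the miR-17 cluster, and 3 of those that rose belong to the miR-99b cluster. Each of these clusters is transcribed together. RefSeq mature sequences are therefore shown for the arm in each name, with the seed, bases 2 to 8, in capitals. Mature sequences of all 10 microRNA genes named here were matched on GRCm38.p6.
mmu-miR-99b-5p: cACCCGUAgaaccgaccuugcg
mmu-let-7e-5p: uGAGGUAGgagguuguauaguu
mmu-miR-125a-5p: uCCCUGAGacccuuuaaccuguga
mmu-miR-342-3p: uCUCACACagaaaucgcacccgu
mmu-miR-181b-5p: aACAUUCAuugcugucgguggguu
mmu-miR-17-5p: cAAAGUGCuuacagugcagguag
mmu-miR-20a-5p: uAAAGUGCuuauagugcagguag
mmu-miR-18a-5p: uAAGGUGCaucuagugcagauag
mmu-miR-19a-3p: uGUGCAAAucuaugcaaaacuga
mmu-miR-19b-3p: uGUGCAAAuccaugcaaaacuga
Among the sequences shown, the seeds of miR-17 and miR-20a are the same, as are those of miR-19a and miR-19b. The seeds of the risen members each occur there only once, and microRNAs not shown were not compared.

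The cluster on chromosome 17 of miR-99b (chr17:17830194-17830215 for the mature form), let-7e and miR-125a rose. Mir99b went from 5.33 and 5.52 to 7.07 and 6.96, a difference of 1.59 (SE 0.26, adjusted p = 3.24e-06). Mirlet7e went from 5.30 and 4.81 to 6.67 and 6.47 and rose by 1.52, and Mir125a rose by 1.22 from 4.85 and 4.47. Mir342, which lies within the gene Evl on chromosome 12, went from 5.03 and 5.34 to 6.81 and 6.84 and rose by 1.64 (SE 0.17, adjusted p = 3.83e-10). Evl itself, an actin regulator, differed by 0.96 (SE 0.12, adjusted p = 1.48e-08), just under the minimum change. Mir181b-1 went from 3.77 and 3.23 to 4.90 and 5.03 (difference 1.47), from a dim level.

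The miR-17 cluster on chromosome 14, whose members promote proliferation and are induced by Myc, fell. Mir18 was at 5.48 and 5.66 at 2 h and at 3.39 and 3.29 at 8 h, a fall by 2.23 (SE 0.28, adjusted p = 1.51e-08) to a dim level. Mir19a fell by 1.19 and Mir17 by 1.03, both close to the dim line already at 2 h, and 1 of them was dim at both times. The host gene Mir17hg (-0.88), Mir19b-1 (-0.67) and Mir20a (-0.64) moved the same way by less than the minimum, all with adjusted p below 0.01 in limma. Myc, from the immediate early list, fell by 2.20 in the same arrays, and a link between these falls was not tested.

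Markers of other cells that bone marrow cultures can hold were checked beside these results. Calls among them are to be read against the 4.29% of all genes that rose and the 6.43% that fell. The 13 granulocyte markers summed to an intensity of 967 to 982 at 2 h and 680 to 699 at 8 h; 1 of them fell, Ngp (-1.08, and under the minimum in both other scalings), 7 were lower and 0 higher at an unadjusted p below 0.05 (4 and 0 at an adjusted one), and Cxcr2 and Retnlg were dim on all 4 arrays. B cell, T and NK cell and erythroid markers had 0 calls in limma, with 2, 1 and 2 genes at an unadjusted p below 0.05, and Cd79a, Ms4a1, Cd3d, Cd3g, Ncr1 and Klf1 were dim throughout. Of 6 mast cell and basophil markers 5 were dim on every array and Kit fell by 1.25. Of 6 dendritic cell markers 1 rose, Ccr9 (1.53, from a dim level), and the summed intensity was 96 to 99 at 2 h and 132 to 133 at 8 h. The part of these cells in the results was not tested.

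The 9 stromal and endothelial markers summed to 270 to 273 at 2 h and 1012 to 1028 at 8 h, through 3 genes that rose. Kdr, a VEGF receptor, went from 6.49 and 6.37 to 9.42 and 9.40 and rose by 2.98 (SE 0.16, adjusted p = 2.26e-18), Pdgfrb rose by 2.62 and Dcn by 1.12 from a dim level. Of the other members, Lum and Tek were dim on all arrays, and Col1a1 (0.16), Col1a2 (0.06), Col3a1 (0.37) and Cdh5 (0.38) did not pass. Whether stromal or endothelial cells had a part in these rises was not tested.

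The 4 h and 24 h arrays of the same dose place the interval in the course of the response. The 1 h pair was left out, since 80 genes differed by over 1.5 between its wells, and replicate 2 of 4 h belongs to the 11 arrays that stand apart. Of the 808 genes that rose, 586 (72.5%) had their highest mean at 8 h, 188 (23.3%) at 24 h and 34 (4.21%) at 4 h. By 4 h, 322 of them (39.9%) had covered more than 0.5 of the change to 8 h. Of the 1211 that fell, 816 (67.4%) were lowest at 8 h and 381 (31.5%) at 24 h, and 236 (19.5%) had gone past the same point by 4 h. The genes were chosen on the 2 h and 8 h arrays, so these shares are a description.

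The groups followed different courses. Ifit2 had a mean of 11.47 at 4 h, 12.45 at 8 h and 12.15 at 24 h, and Nos2 of 9.58, 12.44 and 12.08. Il6 peaked at 8 h with 10.93 and was at 8.72 at 24 h, and Ccl17 was at 9.65 at 4 h, 10.18 at 8 h and 6.90 at 24 h. Cfb still rose, from 10.72 at 8 h to 12.44 at 24 h, as did Saa3 (12.33 to 13.20), Lcn2 (10.34 to 12.28) and Marco (8.05 to 10.62). Egr1 was at 6.03 at 4 h and Myc at 8.54, close to their 8 h means of 5.73 and 8.64. Nop58 was at 8.25 at 4 h, as high as at 2 h, and at 5.93 at 8 h.

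**Figure D3:**
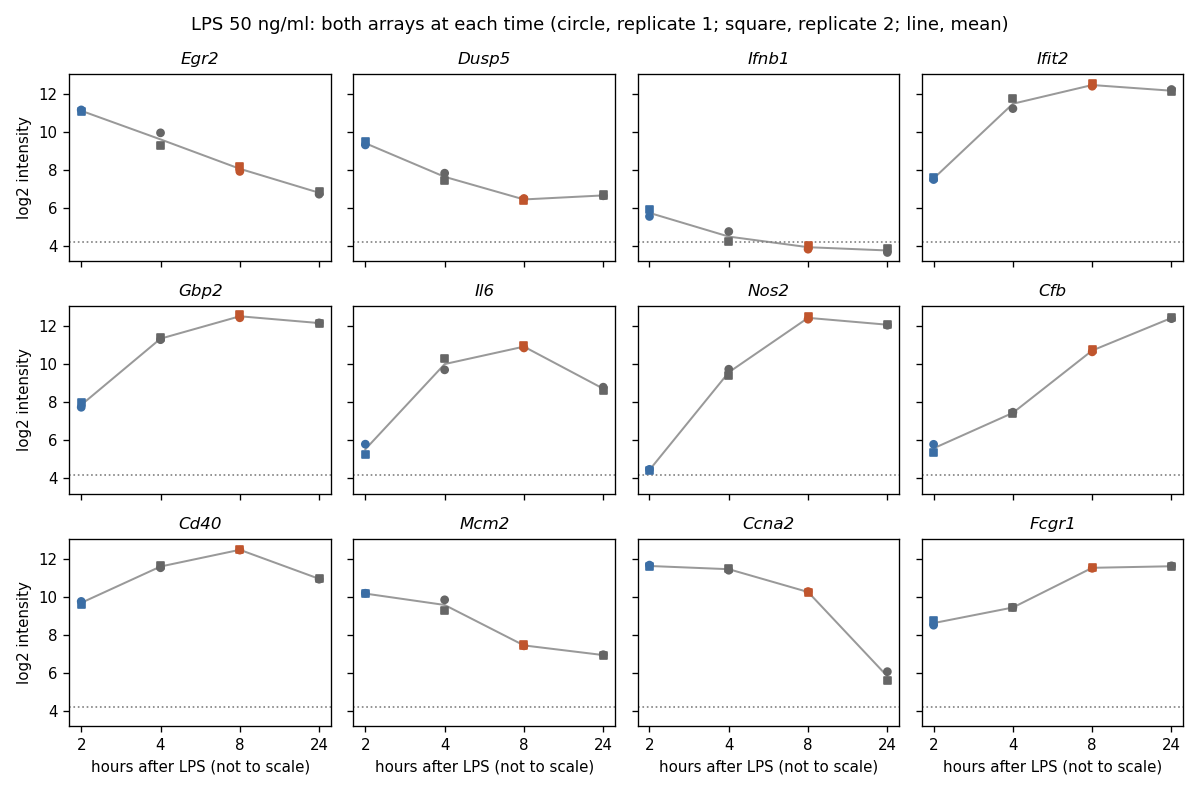
Log2 intensity (y axis) against hours after 50 ng/ml LPS (x axis, not to scale) for 12 genes, with a circle for replicate 1, a square for replicate 2, a line through the means and a dotted line at the dim level. Egr2, Dusp5 and Ifnb1 are highest at 2 h, Ifit2, Gbp2, Il6, Nos2 and Cd40 at 8 h and Cfb at 24 h, and Ccna2 falls mostly after 8 h.

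The same interval at lower doses was measured on other arrays. At 5 ng/ml 1852 genes changed (9.84%; 783 or 4.16% rose and 1069 or 5.68% fell), and at 0.5 ng/ml 943 (5.01%; 497 or 2.64% rose and 446 or 2.37% fell). Of the 808 genes that rose at 50 ng/ml, 682 (84.4%) were called higher at 5 ng/ml and 437 (54.1%) at 0.5 ng/ml. Their median difference was 1.57 at 50, 1.55 at 5 and 1.08 at 0.5 ng/ml. Of the 1211 that fell, 916 (75.6%) and 407 (33.6%) were called lower, and the medians were -1.37, -1.29 and -0.82. At 5 ng/ml the sign was the same in 1210 of the 1211 fallen and in all 808 risen genes, and 0 genes were called in the opposite direction in limma at either dose. As the genes were chosen on the 50 ng/ml arrays, their medians there are larger by choice.

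The difference between 50 and 0.5 ng/ml in the change from 2 h to 8 h passed the test in 483 genes (2.57%), 208 of them (1.11%) in the positive and 275 (1.46%) in the negative direction. The larger side turned with the scaling: 293 were positive and 202 negative after centring, and 224 and 204 after quantile normalisation. Of these, 169 had risen at 50 ng/ml with a larger change than at 0.5 and 225 had fallen with a larger change. Ccl8, a ligand of CCR2 and other receptors, had the largest fitted difference; Ccl8, Iigp1, Cp and Cxcl9 were dim at 2 h with 50 ng/ml, so the size and order of their differences are uncertain. At 50 ng/ml it went from 3.72 and 3.98 to 8.26 and 8.07 (difference 4.31); the difference was 2.13 at 5 and 0.26 at 0.5 ng/ml, so that 50 exceeded 0.5 ng/ml by 4.06 (adjusted p = 3.12e-09).

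Others were Lipg (larger by 3.08), Hdc (2.94), Iigp1 (2.91), the ferroxidase Cp (2.69), Cxcl9 (2.68), Cxcl11 (2.57) and the serotonin transporter Slc6a4 (2.54). All 29 antiviral genes rose at each dose, with medians of 3.28, 3.31 and 2.90, and 0 of 29 passed the test of the dose difference in limma, with 9 at an unadjusted p below 0.05, all of them positive. Of these, Oas1a (0.80), Samhd1 (0.67) and Dhx58 (0.59) had an adjusted p below 0.05 and missed only the minimum difference. Ribosome biogenesis fell in 7, 6 and 0 of 15 genes at 50, 5 and 0.5 ng/ml, and 5 of 15 passed the dose difference. Of 13 Nrf2 targets, 4 passed it in the negative direction (Nqo1, Gclc, Slc7a11 and Srxn1), against 1.46% of all genes. The medians of that list were 0.02 at 50, 0.43 at 5 and 0.68 at 0.5 ng/ml. Cxcl3 rose less at 50 (1.63) than at 0.5 ng/ml (4.07; adjusted p of the difference = 0.0151).

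Between 50 and 5 ng/ml 10 genes differed (0.0531%), 1 (0.00531%) in the positive and 9 (0.0478%) in the negative direction. Ccl8 was the positive one, with 4.31 against 2.13. F3, tissue factor, fell by 2.54 at 50 ng/ml and differed by -0.98 at 5 ng/ml; Phlda1 fell by 2.83 at 50 and by 1.48 at 5 ng/ml, and the iron exporter Slc40a1 by 2.21 and 1.17. Il12a, the p35 subunit of interleukin-12, rose by 2.73 at 50 and by 4.12 at 5 ng/ml. This count fell to 2 with only the arrays compared in the fit and to between 1 and 7 when an array was left out, the lowest without replicate 1 of 8 h at 5 ng/ml; replicate 2 of 2 h at 5 ng/ml is among the 11 arrays that stand apart, and the count without it was 7.

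**Figure D4:**
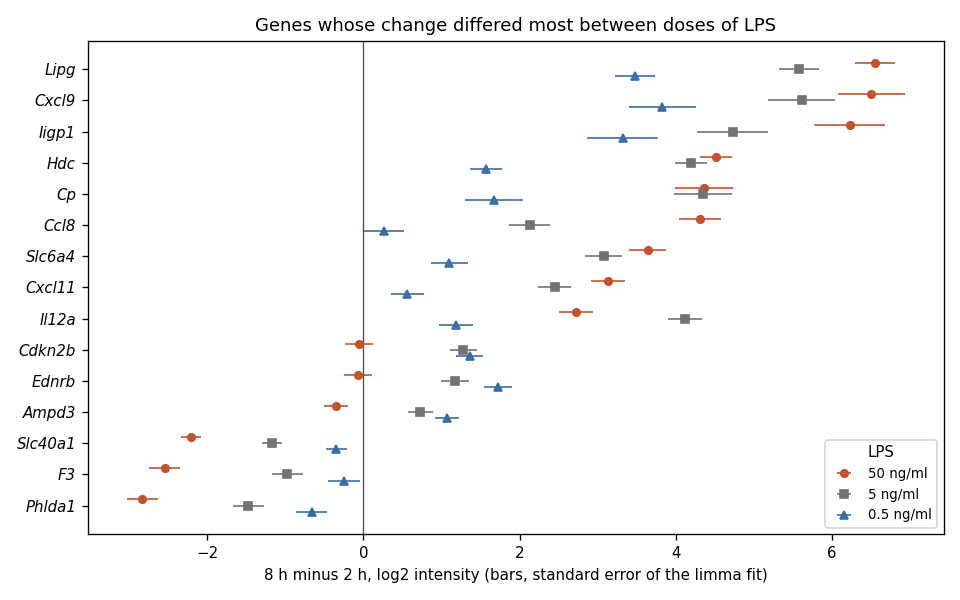
Change from 2 h to 8 h (x axis, log2 intensity, bars for the SE of the limma fit) at 50 ng/ml (orange circles), 5 ng/ml (grey squares) and 0.5 ng/ml (blue triangles) LPS for 15 genes. These are the 8 largest called differences of 50 from 5 ng/ml and the 8 largest of 50 from 0.5 ng/ml, with Ccl8 in both. Ccl8 steps up with each dose, from 0.26 to 2.13 to 4.31, and Slc40a1, F3 and Phlda1 fall furthest at 50 ng/ml.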

How the data were processed

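Total RNA of 64 macrophage cultures was measured on Affymetrix arrays, 2 wells for each of 32 groups. The deposited values are linear probe set intensities; Affymetrix Expression Console 1.1 is named in the submitters' processing notes, and the normalisation is not given in the sources used here. The files hold no detection calls, and with 2 arrays a group it is their number that sets the precision. Of 35556 probe sets, 21218 have 1 gene symbol, 1881 several and 12457 none; 21185 were matched to RefSeq (GRCm38.p6).

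Intensities were taken to log2 without a filter, and the brightest probe set was kept for each of 18820 genes. limma 3.58.1 (R 4.3.3) was fitted to the means of all 32 groups over all 64 arrays. Named genes are the 15 largest rises and 12 largest falls among called genes without overlapping arrays and without gene-model names, up to 4 genes with the largest difference in each list, and the 8 largest dose differences; further list members are named to account for the list. The members and lists were chosen with earlier results of these data known. On simulated data 49 of 50 genes changed by 2 and 50 of 50 changed by 1.5, 3 or -2 log2 units were called. Replicate numbers do not pair the wells.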

Additional observations from a re-analysis of the deposited data

Results flagged for a closer look

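The change from 2 h to 8 h differed between doses, by the interaction test of the limma fit, in the genes listed here. Against 5 ng/ml the change at 50 ng/ml was larger for Ccl8 by 2.18, and it was more negative or less positive for F3 (-1.57), Il12a (-1.40), Phlda1 (-1.36), Cdkn2b (-1.34), Ednrb (-1.25), Ampd3 (-1.08) and Slc40a1 (-1.04). Against 0.5 ng/ml it was larger for Ccl8 by 4.06, Lipg by 3.08, Hdc by 2.94, Iigp1 by 2.91, Cp by 2.69, Cxcl9 by 2.68, Cxcl11 by 2.57 and Slc6a4 by 2.54. Cdkn2b, an inhibitor of cyclin-dependent kinases, changed by -0.06 at 50, 1.28 at 5 and 1.36 at 0.5 ng/ml. Ednrb, an endothelin receptor, changed by -0.07, 1.17 and 1.73, and Ampd3, an AMP deaminase, by -0.35, 0.73 and 1.07. All 8 differences from 5 ng/ml lost their call with only the arrays compared in the fit, with adjusted p from 0.103 for Cdkn2b to 0.219 for Slc40a1. Il12a also lost it with the replicate block (adjusted p = 0.0503), over the 53 arrays (0.0716) and after quantile normalisation (0.0993). The 5 ng/ml group at 2 h holds an array of the 11 that stand apart.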

How the results depend on the processing

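No call reversed its sign in any alternative among the 115 genes followed at 50 ng/ml and the 8 of each dose difference. Changes of sign in genes that were not called were not counted. The larger side of the difference of 50 from 0.5 ng/ml turned with the scaling: positive differences were 43.1% of its genes as deposited, 59.2% centred and 52.3% after quantile normalisation. The medians of the Nrf2 list (0.02, 0.15 and -0.07 in that order) and of the lysosomal list (-0.02, 0.10 and -0.08) changed sign too. Without the minimum change, 6622 genes passed at 50 ng/ml, 6244 at 5 and 4050 at 0.5 ng/ml, and 20 and 1906 for the differences of 50 from 5 and from 0.5 ng/ml. The 10 genes of the difference from 5 ng/ml became 5 with every probe set tested and 2 with only the arrays compared. Leaving out 1 array at a time gave 2018 to 2070 genes at 50 ng/ml, 1852 to 1964 at 5, 938 to 991 at 0.5, 446 to 524 for the difference from 0.5 ng/ml and 1 to 7 for that from 5 ng/ml, of which none of the 8 named genes kept its call throughout. Over the 53 arrays of the larger set, an alternative chosen after seeing the data, the counts were 2022, 1905, 944, 501 and 15. With a replicate block they were 2019, 1852, 943, 483 and 9; same-numbered wells did not deviate together (r between -0.036 and 0.012), so the numbers do not pair them. Of 115 named genes 94 kept their call throughout. The calls lost were Cebpb (0.91 to 1.00), Ciita (0.86), Pdk1 (-0.94 centred, -0.81 quantile) and Trib3 (-0.97 quantile). Dim genes have little signal over background, so their differences are the least certain.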
